A study of Homo sapiens with 12 samples.

Results

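SEM cells labelled as IKZF1 knockout (KO) were compared with wild-type (WT) SEM cells while both were exposed to cytarabine (AraC) at 1 µM for 16 h, with 3 RNA-seq libraries per genotype. SEM is an established human B cell precursor acute lymphoblastic leukaemia line that carries a KMT2A fusion. Values are FPKM, fragment counts that the authors scaled for gene length and between libraries. The comparison covered 12623 of the 58735 genes in the table. These had an FPKM of 1 or more in at least 3 of the 6 treated libraries. Of these genes 10313 were protein-coding and 2310 belonged to other biotypes. At the edge of the filter, the third-highest treated value was 1.0004 FPKM for CNTD1, which was kept, and 0.9987 FPKM for NELL1, which was not. The filter used levels and not differences, but 163 genes passed it through WT libraries alone and 108 through KO libraries alone, and 141 and 80 of these were called different. The series holds 12 libraries, the other 6 being untreated WT and untreated KO cells with 3 libraries each. The labels describe 1 knockout line, and neither its making nor whether it is 1 clone is stated in them.

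The product of IKZF1, Ikaros, is a DNA-binding zinc finger protein that is required for lymphoid development and is often deleted in B cell precursor leukaemia. Ikaros binds DNA at motifs with a TGGGAA core, recruits chromatin complexes such as NuRD, and in mouse pre-B cells is known to repress genes of the surrogate light chain and to restrain adhesion. Cytarabine is a cytidine analogue that enters cells through nucleoside transporters, is phosphorylated first by deoxycytidine kinase, and stalls replication forks once it is built into DNA.

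IKZF1 RNA itself did not separate the genotypes with AraC. It read 14.2, 14.8 and 15.3 FPKM in WT and 14.2, 14.3 and 14.98 FPKM in KO libraries, and the ranges overlapped (log2 difference -0.03, limma adjusted p = 0.61). A gene-level value cannot see a small deletion or frameshift, so it does not check the genotype, and WT and KO are the labels' names throughout. The 6 treated libraries held 16373922 to 22733932 reads assigned to genes. KO replicate 3 stood apart from the other KO libraries: a chi-square comparison of reads per gene with each of them gave values of 6.43 and 7.95 per degree of freedom, against 2.24 to 4.26 for the other pairs of one group, and 4.32% of its genes lay more than 1.5-fold from its partners against 2.51% to 3.31% in the other treated libraries. Of 9 B cell precursor markers 7 reached 1 FPKM, with RAG1 and DNTT below it; the summed level of the 9 was 390.6 to 420.1 FPKM in WT and 585.4 to 598.9 FPKM in KO libraries. Markers of other cells were at or near 0 for CD3D, the erythroid and the epithelial genes, while NKG7, LYZ, COL1A1 and PDGFRB were detected. In bulk RNA, fewer cells expressing a gene and less RNA per cell cannot be told apart.

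With AraC, 4073 of the 12623 genes (32.3%) differed between the genotypes by limma's moderated test on log2(FPKM + 0.5) at a Benjamini-Hochberg adjusted p under 0.05. In KO libraries 2083 genes (16.5%) were higher and 1990 (15.8%) lower. Most differences were small: 2128 of the called genes differed by less than 1.25-fold, while 223 genes (1.77%) differed by at least 2-fold, of which 106 (0.84%) were higher and 117 (0.927%) lower. The split by direction depended on scaling, with 1360 higher and 3048 lower after rescaling to TPM, and 1577 higher and 2779 lower with plain read totals. TPM moved the median of all genes from 0.0037 to -0.07 on the log2 scale. Without KO replicate 3 there were 1829 higher and 1889 lower genes, and 3350 of the 4073 calls were kept in the same direction. At an unadjusted p under 0.05 there were 5360 genes (42.5%), and for 5658 genes (44.8%) the groups did not overlap. Calls took in 36.4% of protein-coding genes but 12.3% of antisense and 18.5% of lincRNA genes. The labels do not state that replicates came from separate cultures, so a p-value reflects spread among libraries that could be technical replicates.

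**Figure D1:**
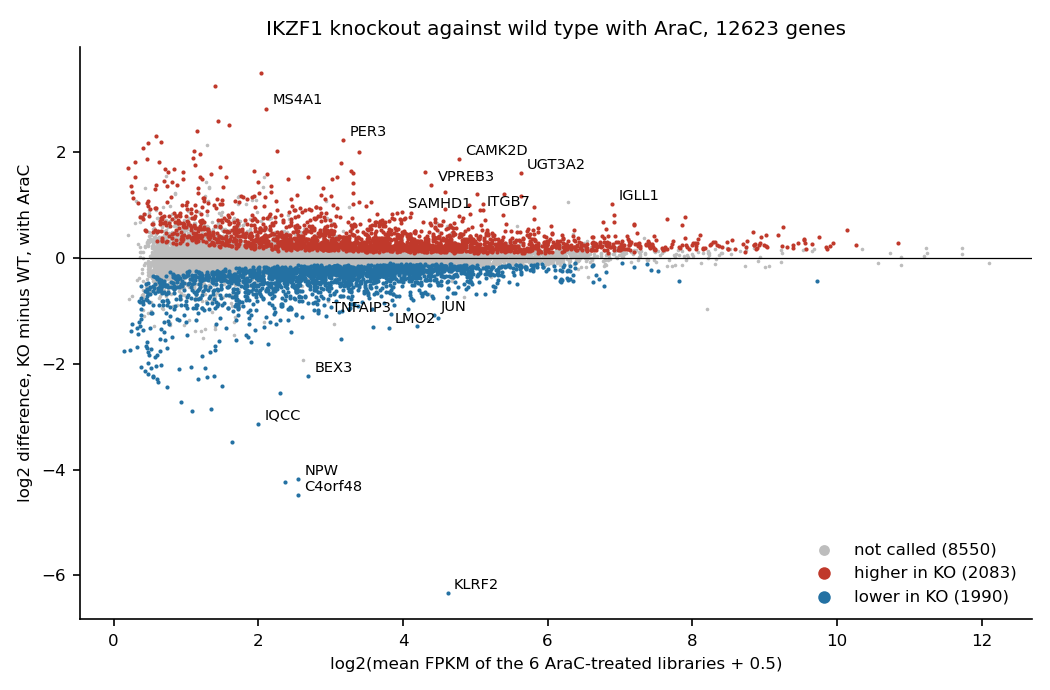
Each point is 1 of the 12623 genes, with the log2 mean FPKM of the 6 treated libraries on the x axis and the log2 difference, KO minus WT with AraC, on the y axis; red genes are higher in KO and blue genes lower, at an adjusted p under 0.05. The 2083 higher and 1990 lower genes spread around 0, MS4A1 and PER3 stand at the top at 2.82 and 2.23, and KLRF2 at the bottom at -6.33.

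Many genes of B cell identity were higher in the KO libraries. Of 18 tested genes of the pre-B receptor and its signalling, 10 were higher and 0 lower, with a median log2 difference of 0.19 against 0.0037 over all genes. Under TPM scaling 9 were higher and 1 lower. Each list count here and below stands beside 16.5% higher and 15.8% lower over all genes. IGLL1, the λ5 part of the surrogate light chain that pairs with the heavy chain before light chains are made, read 73.0, 76.9 and 82.9 FPKM in WT and 167, 158 and 150 FPKM in KO libraries. Every KO library thus exceeded every WT library, by 1.03 ± 0.06 (SE) on the log2 scale (limma adjusted p = 3.5e-07). Its partner VPREB1 read 46.9, 44.3 and 48.8 FPKM in WT and 74.5, 66.1 and 66.7 FPKM in KO libraries, and VPREB3, which assists assembly of the pre-B receptor, 11.3, 9.71 and 12.5 FPKM against 27.5, 29.8 and 32.0 FPKM. Their log2 differences were 0.56 ± 0.05 and 1.38 ± 0.10 (limma adjusted p = 1.7e-05 and 1.9e-06), again without overlap. CD79A, a signalling chain of the receptor, rose from 80.6, 88.4 and 94.3 FPKM to 148, 145 and 169 FPKM, a log2 difference of 0.81 ± 0.07. CD22, an inhibitory co-receptor, read 20.6, 20.5 and 21.1 FPKM in WT and 34.6, 36.6 and 34.2 FPKM in KO libraries (0.75 ± 0.04). PIK3CD, the lymphoid PI3 kinase subunit, and CD81, a tetraspanin, were higher by 0.56 and 0.36, whereas BTK, LYN and PTPN6 were not called and BLNK, RAG1, RAG2 and DNTT lay below the filter. Of the precursor markers among these, DNTT, the polymerase that adds bases at V(D)J joins, read 0.499, 0.830 and 0.748 FPKM in WT and 0, 0 and 0.0611 FPKM in KO libraries, and RAG1, a subunit of the recombinase, 0.184, 0.202 and 0.341 FPKM against 0.103, 0.0522 and 0.0462 FPKM. Both were thus lower in every KO library and were not tested. The IGLL1-related gene IGLL5 went the other way, at 5.53, 6.13 and 6.80 FPKM in WT and 2.45, 2.36 and 2.07 FPKM in KO libraries (-1.25 ± 0.10), and it lies outside that list.

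Promoters of VPREB3 and IGLL1, whose log2 differences exceeded that of VPREB1, are shown to set the letters of the Ikaros core beside the values. Each is the 250 bases before the start site in RefSeq (GRCh38.p14), written 5′ to 3′ on the gene's strand, VPREB3 at chr22:23754426-23754675 and IGLL1 at chr22:23580291-23580540, both on the minus strand. Capitals mark TGGGAA on either strand.

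VPREB3: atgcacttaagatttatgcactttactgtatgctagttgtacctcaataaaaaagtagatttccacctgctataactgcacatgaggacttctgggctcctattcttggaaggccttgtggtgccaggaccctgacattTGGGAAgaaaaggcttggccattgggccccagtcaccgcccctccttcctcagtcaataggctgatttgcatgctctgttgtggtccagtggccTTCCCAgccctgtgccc

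IGLL1: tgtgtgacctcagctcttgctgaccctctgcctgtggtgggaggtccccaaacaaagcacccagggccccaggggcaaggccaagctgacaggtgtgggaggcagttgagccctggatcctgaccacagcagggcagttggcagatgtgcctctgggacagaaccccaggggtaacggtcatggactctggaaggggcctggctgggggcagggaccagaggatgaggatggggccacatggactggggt

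The VPREB3 window held 2 matches, which start 111 and 17 bases before the start site, and the IGLL1 window held 0. The core is common: it was found in 19.3% of the 8344 tested protein-coding genes with a promoter in the RefSeq table, in 17.8% of those higher and in 18.4% of those lower in KO libraries. Of the 13 pre-B receptor genes with a promoter there, 2 (15.4%) held it. A match is a run of letters and not a measured binding site.

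Among 22 tested surface antigens used to type leukaemia, 12 were higher and 4 lower, with a median of 0.21. MS4A1, which encodes the mature B cell antigen CD20 (GRCh38 chr11:60455752-60470760), had the largest log2 difference upward of any protein-coding gene that the naming rule takes, at 0.497, 0.672 and 0.547 FPKM in WT and 7.09, 6.80 and 7.30 FPKM in KO libraries (2.82 ± 0.09, limma adjusted p = 5.5e-09). It passed the filter through KO libraries alone. IL7R, the receptor chain for the pro-B growth factor IL-7, read 30.2, 30.03 and 29.4 FPKM in WT and 52.5, 51.7 and 54.3 FPKM in KO libraries (0.81 ± 0.04). CD38, CSPG4 (the NG2 antigen typical of KMT2A-rearranged leukaemia) and TNFRSF13C (the BAFF receptor) were higher by 0.89, 0.65 and 0.55. The lower members were CD9, CD33 (which passed the filter through WT libraries alone), IL3RA and CD52. CD9, a tetraspanin, fell from 4.55, 5.04 and 5.65 FPKM to 1.65, 0.979 and 1.52 FPKM (-1.58 ± 0.14). Of 19 genes of the IL-7 receptor and JAK-STAT pathway, 4 were higher (IL7R, IL2RG, JAK3 and JAK1) and 2 lower (STAT3 and SH2B3, an adaptor that dampens JAK signalling, at -0.54); the median was 0.06, and -0.0030 under TPM. Antigen presentation by MHC class II gave 5 higher and 0 lower of 10, with a median of 0.28. HLA-DRA read 126, 122 and 130 FPKM in WT and 169, 170 and 186 FPKM in KO libraries (0.47 ± 0.05), and CD74, the invariant chain, differed by 0.43, while CIITA, their transcriptional activator, was not called. Of 17 MHC class I genes 4 were higher and 2 lower, HLA-B among the latter at -0.41.

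Of 23 transcription factors of the B lineage, 15 were higher and 4 lower, with a median of 0.16; TPM scaling changed this to 8 and 5 and plain read totals to 10 and 5. SOX4 and BCL6 were higher by 0.57 each, LEF1 by 0.41, EBF1 by 0.36, TCF3 by 0.32 and PAX5 by 0.11, so these regulators of B cell fate each differed by less than 1.5-fold. The PAX5 call was lost under TPM, plain read totals and quantile scaling and without any of the 3 treated WT libraries or without KO replicate 1 or 2, and that of SPIB (below) without WT replicate 2. The 4 lower genes were FOXO1 (-1.29), ID2 (-0.63), SPIB (-0.35) and ETV6 (-0.27). FOXO1 passed the filter through WT libraries alone and lies on chromosome 13, which is described below, and BACH2, among the higher genes, passed it through KO libraries alone. Of the other Ikaros family genes, IKZF2 was higher in KO libraries (0.44 ± 0.06), and IKZF3 (-0.89 ± 0.12) and IKZF5 (-0.39 ± 0.09) were lower. IKZF3, encoding Aiolos, read 1.81, 1.40 and 1.77 FPKM in WT and 0.653, 0.658 and 0.680 FPKM in KO libraries and so passed the filter through WT libraries alone, and IKZF4 differed by 0.25 without passing the test (limma adjusted p = 0.071). For the partners through which Ikaros represses, NuRD and CtBP, 7 of 17 were higher and 0 lower, with a median of 0.06. TPM scaling left 2 higher and 1 lower with a median of -0.01, and 4 were higher without WT replicate 1 or without KO replicate 3. Of 23 Polycomb genes 8 were higher and 3 lower (median 0.01, and -0.06 under TPM), among them CBX6 (0.73) and JARID2 (0.65); 4 were higher under TPM, with plain read totals and without WT replicate 1.

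Targets of the KMT2A fusion were mixed: 12 of 28 were higher and 4 lower, with a median of 0.08, but 6 and 6 under TPM. RUNX2, a Runt factor, read 5.38, 5.32 and 5.24 FPKM in WT and 11.2, 10.3 and 10.5 FPKM in KO libraries (0.94 ± 0.05). CDK6 and HOXA7 were higher by 0.42 and 0.46, and ZEB2 and KMT2A itself lower, at -0.46 and -0.27. Of 10 stem and progenitor genes 5 were higher, among them MSI2 (0.62) and SPINK2 (1.68, through KO libraries alone), and 3 were lower: ANGPT1, LYL1 and LMO2. LMO2, a bridging factor of blood stem cell complexes, fell from 19.1, 19.2 and 19.9 FPKM to 8.23, 7.27 and 7.07 FPKM (-1.31 ± 0.07, limma adjusted p = 4.1e-07). Of 9 tested genes of the myeloid lineage (26 in the list) 6 were lower and 1 higher, with a median of -0.47. Without WT replicate 2 or KO replicate 3, 4 were lower, and 5 without WT replicate 3, KO replicate 1 or KO replicate 2. The median was -0.54 to -0.44 when single treated libraries were left out. CEBPA, the master regulator of granulocyte fate, read 41.3, 47.0 and 47.4 FPKM in WT and 32.1, 33.7 and 31.4 FPKM in KO libraries (-0.47 ± 0.05). CD33 and CSF1R were lower, at -1.20 and -0.89, although CD33 passed the filter through WT libraries alone and CSF1R overlaps a pseudogene, RPL7P1, and the exception was the cytokine receptor chain CSF2RB at 0.77. The summed level of 4 myeloid markers was 4.15 to 5.09 FPKM in WT and 1.89 to 3.04 FPKM in KO libraries and came from LYZ; MPO, CD14 and ITGAM stayed below 1 FPKM, and what part such cells or reads play in these differences was not tested. Of 7 T and NK cell genes 4 were higher, ZAP70 (0.63), LCK (0.35) and PRF1, which passed the filter through KO libraries alone, among them, and NKG7 was lower (-0.76), with CD3D at 0 in both groups. Of 2 erythroid and megakaryocyte genes tested, TFRC and GP9, 0 were called.

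Adhesion and integrin genes gave 11 higher and 6 lower of 25, with a median of 0.08 that was -0.00057 under TPM. ITGB7, the β7 integrin that directs lymphocytes to the gut, read 22.2, 22.5 and 23.6 FPKM in WT and 42.1, 43.7 and 44.0 FPKM in KO libraries (0.91 ± 0.05). CXCR4, the receptor that holds B cell precursors in the marrow, read 19.2, 19.3 and 20.2 FPKM against 34.3, 32.4 and 36.2 FPKM (0.79 ± 0.04), and its difference exceeded that of the untreated cells (0.38) by 0.41 (limma adjusted p = 0.010 for the interaction). VIM and VCL were higher by 0.63 and 0.36, and PXN, encoding the focal adhesion adaptor paxillin, was lower, at -1.08. Of 9 ligands of NK cell receptors 2 were higher and 2 lower, among them CD48 at 0.75 and NECTIN2 at -0.59 (median 0.10).

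The genes furthest up were of many kinds. PER3, a period protein of the circadian clock, read 2.62, 2.80 and 2.55 FPKM in WT and 14.6, 13.6 and 14.8 FPKM in KO libraries (2.23 ± 0.09), and BHLHE41, a clock repressor, was higher by 1.12; of 12 clock genes 3 were higher and 2 lower (median 0.03, and -0.04 under TPM). CAMK2D, a calmodulin-dependent kinase, read 11.5, 11.1 and 11.2 FPKM against 41.4, 43.8 and 42.8 FPKM (1.87 ± 0.05). OAT, the mitochondrial ornithine aminotransferase, read 4.36, 4.40 and 4.40 FPKM against 14.3, 14.1 and 14.9 FPKM (1.61 ± 0.04). None of these groups overlapped, which the rule that picked the genes furthest up required. ALDH1A1, a retinal dehydrogenase, was higher by 2.03, RIPOR2 by 1.64, UGT3A2 by 1.60, TRIM72 by 1.59, RIBC2 by 1.53, the serotonin receptor HTR1F by 1.52, the B cell gene FCRLA by 1.49, BEX2 by 1.49, the TNF family ligand CD70 by 1.32 and MAP3K6 by 1.25. Among other biotypes LINC01108 was higher by 2.00, the unprocessed pseudogene AC245047.8 by 1.80, and the small nucleolar RNA SNORD14E rested on 1 read in WT and 31 in KO libraries, a ratio of 36.2 with an exact 95% interval of 6.0 to 1473.6 that covers counting error only. SNORD14E lies inside HSPA8 on the same strand and passed the filter through KO libraries alone.

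Several genes were close to absent in the KO libraries. KLRF2, encoding a C-type lectin receptor of NK cells (GRCh38 chr12:9881489-9895833), read 48.3, 45.1 and 50.8 FPKM in WT and 0.157, 0 and 0.165 FPKM in KO libraries, or 2100 reads against 4. The ratio was 450.1-fold with an exact 95% interval of 175.5 to 1653.6 for counting error. C4orf48 read 9.04, 12.01 and 11.1 FPKM in WT and 0 in every KO library, which is at least 97.2-fold lower when the KO group is set to a floor of 3 reads in all. RTL8C, a retrotransposon-derived gene, gave 644 reads against 1, and NPW, which encodes the neuropeptide W precursor, 736 against 7. The small RNA RF00019 (ENSG00000212556, a name that several copies share) gave 33 reads against 0, at least 9.4-fold lower over the same floor. In all, 16 genes had every WT library at 1 FPKM or more and every KO library under 0.1 FPKM, and 6 genes showed the reverse. KLRF2, above that limit in 2 of the KO libraries, also stood low without AraC, at 123.2, 110.5 and 115 FPKM in WT and 0.519, 0.178 and 0.173 FPKM in KO libraries. IQCC read 6.79, 6.08 and 7.19 FPKM in WT and 0.278, 0.423 and 0.267 FPKM in KO libraries (-3.13 ± 0.10). KLRF2, C4orf48, RTL8C, NPW, RF00019 and IQCC passed the filter through WT libraries alone, as did every gene of the 16 counted above. Further down the list came MAPK11, the p38β kinase (-2.55), BEX3 (-2.24), CIDEB (-1.63, overlapping NOP9), the interleukin receptor kinase IRAK2 (-1.53), the kinase inhibitor CAMK2N2 (-1.39), PROCR (-1.37), SMAD9 (-1.30), the ribosome biogenesis factor NOC3L (-1.30), HCP5 (-1.07, overlapping MICA) and FAM27B (-1.05, a call lost without WT replicate 1, WT replicate 3 or KO replicate 1).

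NF-κB genes were lower in KO libraries with AraC. Of 16 tested genes of the pathway, 10 were lower, 1 was higher, and the median was -0.34; 8 more lay below the filter, and REL and BCL3 passed it through WT libraries alone. The count of 1 higher and 10 lower was the same with TPM, plain read totals, quantile scaling and limma-voom, and 8 were lower without WT replicate 3. TNFAIP3, which encodes the feedback inhibitor A20, read 9.71, 9.79 and 10.3 FPKM in WT and 4.17, 4.78 and 4.20 FPKM in KO libraries (-1.10 ± 0.08, limma adjusted p = 1.9e-06). RELB, a subunit of the noncanonical dimer, read 13.2, 13.7 and 15.2 FPKM against 7.92, 7.83 and 8.47 FPKM (-0.76 ± 0.06), and NFKB1, the p105 precursor of p50, 14.6, 13.8 and 15.3 FPKM against 11.3, 11.4 and 11.8 FPKM (-0.32 ± 0.04). The lowest WT library lay above the highest KO library for all of these. NFKB2, REL, the inhibitors NFKBIA, NFKBIB and NFKBIE, the co-activator BCL3 and the adhesion molecule ICAM1 were lower, at -0.40, -0.50, -0.23, -0.51, -0.36, -1.21 and -0.35. The calls of NFKBIA and ICAM1 were lost without WT replicate 3, and that of NFKBIA also without WT replicate 2. The 1 higher gene was TNF itself, at 5.02, 6.66 and 5.38 FPKM in WT and 9.0, 9.21 and 6.57 FPKM in KO libraries, which overlapped (0.50 ± 0.13); this call was lost without WT replicate 1, WT replicate 3, KO replicate 1 or KO replicate 2. RELA, the p65 subunit, did not pass the test (limma adjusted p = 1.0).

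Promoters of 3 members are shown because they hold the κB motif, the sequence that NF-κB dimers bind, within the same window of 250 bases before the RefSeq start site. TNFAIP3 is at chr6:137867009-137867258 on the plus strand, NFKB1 at chr4:102501109-102501358 on the plus strand, and NFKBIA at chr14:35404750-35404999 on the minus strand. Capitals mark the κB motif on either strand.

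TNFAIP3: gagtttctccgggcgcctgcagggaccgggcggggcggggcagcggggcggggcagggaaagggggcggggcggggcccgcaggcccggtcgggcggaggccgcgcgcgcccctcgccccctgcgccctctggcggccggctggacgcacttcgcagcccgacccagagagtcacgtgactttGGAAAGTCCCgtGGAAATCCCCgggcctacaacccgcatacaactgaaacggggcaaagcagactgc

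NFKB1: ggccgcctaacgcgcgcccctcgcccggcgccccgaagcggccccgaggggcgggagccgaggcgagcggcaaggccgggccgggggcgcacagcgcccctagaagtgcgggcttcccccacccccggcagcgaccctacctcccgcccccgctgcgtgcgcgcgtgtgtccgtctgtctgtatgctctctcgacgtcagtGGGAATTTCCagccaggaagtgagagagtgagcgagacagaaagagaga

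NFKBIA: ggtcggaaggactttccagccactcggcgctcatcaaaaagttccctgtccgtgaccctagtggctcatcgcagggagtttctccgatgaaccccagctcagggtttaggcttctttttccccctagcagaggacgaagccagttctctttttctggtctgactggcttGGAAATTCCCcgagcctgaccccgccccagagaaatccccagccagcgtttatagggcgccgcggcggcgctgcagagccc

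TNFAIP3 held 2 matches, which start 67 and 55 bases before the start site; NFKB1 held 1 at 49 bases, overlapping 1 TGGGAA core, and NFKBIA held 1 at 81 bases. Over all 8344 promoters 11.7% held the motif, as did 12.2% of those of higher and 12.4% of those of lower genes. It was found in 4 of the 12 NF-κB genes with a promoter in the table. It was also found in 4 of 13 pre-B receptor genes, a list with 10 members higher and 0 lower. The IGLL1 window shown above held 2 κB matches, which are not in capitals there. NFKB1 has 2 promoters in that table and the first was used.

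Immediate early genes of the AP-1 group showed 5 lower and 3 higher of 17, with a median of -0.08; 1 was higher under TPM, under plain read totals, without WT replicate 1 and without KO replicate 2, and the median was 0.03 without WT replicate 3. JUN, the AP-1 subunit, read 26.1, 29.3 and 31.2 FPKM in WT and 13.03, 14.8 and 12.2 FPKM in KO libraries (-1.08 ± 0.09, limma adjusted p = 5.3e-06). FOSL1, KLF6, DUSP1 and FOSL2 were lower, at -1.41, -0.56, -0.31 and -0.21, FOSL1 having passed the filter through WT libraries alone, while FOS, JUNB and JUND did not pass the test. ATF3, a stress-induced factor that pairs with JUN, read 11.5, 12.3 and 12.7 FPKM in WT and 5.85, 6.33 and 5.99 FPKM in KO libraries (-0.95 ± 0.11).

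**Figure D2:**
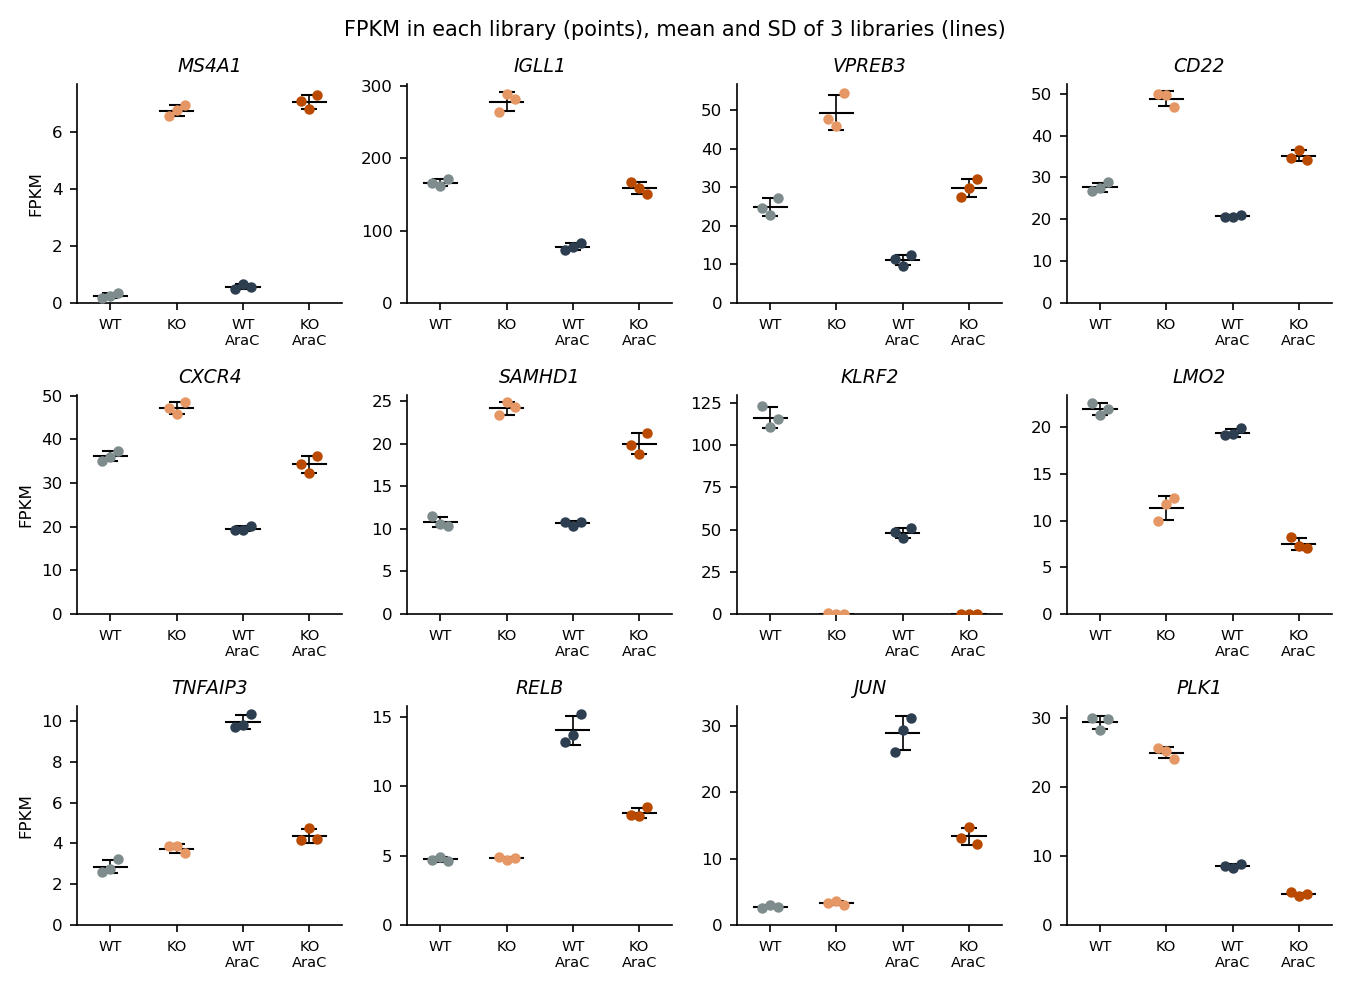
FPKM of 12 genes in each of the 12 libraries, by genotype and treatment, with the mean and SD of 3 libraries. MS4A1, IGLL1, VPREB3, CD22, CXCR4 and SAMHD1 are higher and KLRF2, LMO2, TNFAIP3, RELB, JUN and PLK1 lower in KO than in WT libraries with AraC; for TNFAIP3, RELB and JUN the untreated libraries lie low in both genotypes.

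The untreated libraries, which are other libraries of the same lines, let each difference be set beside its value without drug. Without AraC 3648 of the same 12623 genes (28.9%) were called, 1983 (15.7%) higher and 1665 (13.2%) lower in KO. Of the 2083 genes higher with AraC, 1218 (58.5%) were called in the same direction untreated, and of the 1990 lower genes 1060 (53.3%); 51 were called in the opposite direction. For differences of at least 2-fold these shares were 91 of 106 (85.8%) and 103 of 117 (88.0%). Both contrasts share the lines and the variance estimate, so their likeness is not independent support. MS4A1 was higher by 3.26 untreated, IGLL1 by 0.74, CD79A by 0.69, IL7R by 0.61 and ITGB7 by 1.09, and LMO2 was lower, at -0.92.

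The difference between both contrasts, tested as an interaction, was called for 375 genes (2.97%), with 124 (0.982%) more positive and 251 (1.99%) more negative with AraC. Of the 16 NF-κB genes 6 had such a call, all negative, and the median untreated difference of the list was 0.09 with 5 genes higher and 1 lower. TNFAIP3 read 2.61, 2.74 and 3.25 FPKM in WT and 3.86, 3.87 and 3.51 FPKM in KO libraries without AraC, where KO was the higher group (0.34), so that its interaction was -1.44 ± 0.11 (limma adjusted p = 0.00028). JUN was at 2.62, 2.97 and 2.72 FPKM in untreated WT and 3.32, 3.58 and 2.95 FPKM in untreated KO libraries, with an interaction of -1.29. The treated WT libraries of JUN were thus far above the untreated ones, and the treated KO libraries lay between. RELB, BCL3, NFKB1, NFKB2 and ICAM1 had interactions of -0.78, -1.20, -0.37, -0.52 and -0.71, of which those of BCL3 and NFKB2 lost their call without several single libraries (WT AraC replicate 3 among them), and ATF3, KLF6, DUSP1 and BTG2 of -0.94, -0.53, -0.59 and -1.11. BTG2, an antiproliferative p53 target, was higher by 1.17 untreated and by 0.06 with AraC, the latter not called. In the positive direction CD52 read 12.5, 12.9 and 15.05 FPKM in WT and 10.0, 9.66 and 9.34 FPKM in KO libraries with AraC (-0.46) against -1.41 untreated, and PKN3, RAB15 and PRPS2 moved from -1.74, -1.48 and -0.91 untreated to -0.97, -0.79 and -0.28 with AraC. Leaving out single libraries brought the number of interaction calls down to as few as 145, without WT AraC replicate 2.

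**Figure D3:**
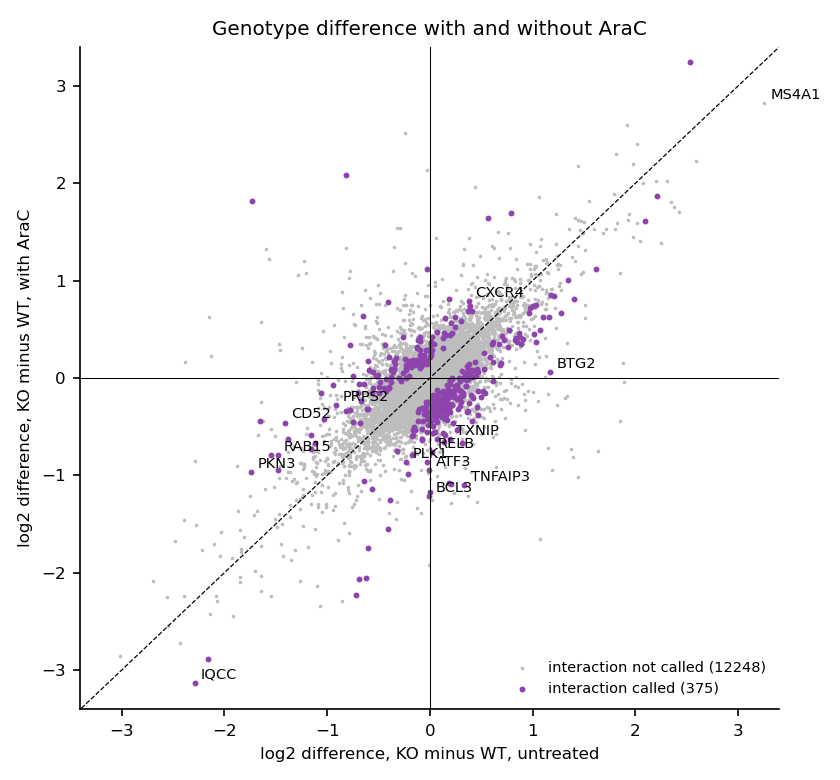
The log2 difference, KO minus WT, of each gene untreated (x axis) and with AraC (y axis); purple points mark the 375 genes with an interaction at an adjusted p under 0.05, the dashed line is equality, and 6 genes lie outside the axes. TNFAIP3, BCL3, ATF3 and RELB lie below the line with negative treated and near-zero or positive untreated values, and CD52 and PKN3 lie above it.

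Of 38 genes of mitosis 9 (23.7%) were lower and 5 (13.2%) higher, near the 15.8% and 16.5% over all genes, with a median of -0.05; TPM scaling gave 20 lower and 2 higher and plain read totals 17 and 3, and 3 were higher without WT replicate 2, WT replicate 3 or KO replicate 1. PLK1, the mitotic entry kinase, read 8.56, 8.26 and 8.81 FPKM in WT and 4.72, 4.25 and 4.43 FPKM in KO libraries (-0.87 ± 0.05, limma adjusted p = 3.0e-07). AURKA, HMMR, CCNB1, CENPE and KIF2C were lower, at -0.55, -0.46, -0.43, -0.42 and -0.35, and PTTG1 and CENPF higher by 0.37 and 0.22. Without AraC 10 of the 38 were higher and 4 lower, with a median of 0.09. An interaction was called for 6 of them, all negative, against 1.99% of all genes called negative. PLK1 and CCNB1, the cyclin of mitotic entry, had interactions of -0.64 and -0.49, with untreated differences of -0.23 and 0.06. The number of mitotic cells was not measured. DNA replication genes showed 6 higher and 9 lower of 40 (median -0.06; 4 and 19 under TPM, 5 and 18 with plain read totals). PCNA, the sliding clamp, read 224, 223 and 227 FPKM in WT and 254, 264 and 264 FPKM in KO libraries (0.21 ± 0.04), and FEN1, the flap nuclease, was higher by 0.29. MCM4, ORC5 and RFC3 were lower, at -0.26, -0.35 and -0.32, the first on chromosome 8 and the last on chromosome 13.

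Of 24 replication checkpoint genes 5 (20.8%) were higher and 4 (16.7%) lower, near the 16.5% and 15.8% over all genes, with a median of -0.02. CDC25A, the phosphatase that CHK1 marks for degradation when forks stall, was lower, at -0.41, MDC1 by -0.39 and CHEK2 by -0.28, and TIMELESS was higher by 0.21. Fork protection and recombination genes gave 6 higher and 5 lower of 35 (median 0.01; 1 and 8 under TPM, 3 and 4 without WT replicate 2), with PARP1 higher by 0.30 and WRN, BRCA2 and BRCA1 lower, at -0.40, -0.31 and -0.20. Of 19 G1 regulators 6 were higher and 3 lower (median 0.04, and -0.04 under TPM), CDKN2C, CDK6 and CDK2 by 0.50, 0.42 and 0.41. RB1, the restriction point brake on chromosome 13, read 45.0, 45.9 and 45.0 FPKM in WT and 29.1, 31.6 and 31.7 FPKM in KO libraries (-0.55 ± 0.05). Of 4 tested histone genes 0 were called by limma's adjusted p. Of 21 p53 targets 5 were higher and 5 lower (median 0.01), with POLH at 0.32 and AEN, TNFRSF10B and SESN2 at -0.50, -0.76 and -0.38; 2 were higher without WT replicate 2, and 3 without WT replicate 1, KO replicate 1 or KO replicate 3. Of 13 BCL2 family genes 5 were higher and 1 lower (median 0.0021, and -0.07 under TPM), and these included the anti-apoptotic BCL2L1 (0.38) and BCL2 (0.24) beside the pro-apoptotic BCL2L11 (0.34) and BID (0.27). Of 16 death receptor and caspase genes 2 were higher and 4 lower (median 0.02, and -0.05 under TPM), CASP2 at 0.41 and TNFRSF1A and APAF1 at -0.75 and -0.48. Under TPM 2 checkpoint genes were higher and 6 lower, 6 G1 regulators higher and 6 lower, and 2 p53 targets higher and 5 lower. In the BCL2 family, death receptor, clock and NK ligand lists, counts of 1 or 2 genes moved by 1 gene when single libraries were left out.

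Of 23 tested genes that handle cytarabine (27 in the list) 5 (21.7%) were higher and 5 (21.7%) lower, near the 16.5% and 15.8% over all genes. The median was 0.06, and -0.01 under TPM. SAMHD1, the hydrolase that removes the active triphosphate of the drug, read 10.8, 10.3 and 10.8 FPKM in WT and 19.8, 18.8 and 21.3 FPKM in KO libraries. All KO values exceeded all WT values, by 0.87 ± 0.05 on the log2 scale (limma adjusted p = 6.1e-07), and the untreated difference was 1.13. DCK, the activating kinase, read 52.5, 48.7 and 49.6 FPKM in WT and 54.9, 57.0 and 61.2 FPKM in KO libraries, without overlap but also without passing the test (0.20 ± 0.07, limma adjusted p = 0.054). SLC29A1, the main transporter, read 19.5, 17.9 and 18.9 FPKM in WT and 16.8, 17.4 and 17.03 FPKM in KO libraries (-0.13 ± 0.04, limma adjusted p = 0.037), and this call was lost without WT replicate 1, WT replicate 3, KO replicate 1, KO replicate 3 or the untreated WT replicate 3. RRM1 and RRM2, the subunits of ribonucleotide reductase, were higher by 0.24 and 0.15, CMPK1 by 0.26 and the transporter SLC29A2 by 0.47, and of these only RRM1 kept its call under every alternative run: RRM2 lost it under TPM, SLC29A2 under TPM and without 4 of the 6 treated libraries (WT replicates 1 and 3, KO replicates 1 and 2), and CMPK1 without WT replicate 2, WT replicate 3 or KO replicate 3. The nucleotidases NT5M and NT5E were lower, at -0.73 and -0.34, and RRM2B (chromosome 8) and the exporter ABCC4 (chromosome 13) by -0.24 and -0.46. Without WT replicate 1 or KO replicate 1, 3 members were lower and RRM2B was not among them. The deaminase CDA, SLC28A1, SLC28A3 and ABCC11 lay below the filter, and DCTD, NT5C2, NT5C3A, NT5C, NME1, NME2, TK1, TK2, ABCC5, ABCC10, POLA1 and SLFN11 did not pass the test. Of 18 genes of nucleotide synthesis 4 were higher and 3 lower (median 0.0029), with TYMS among the higher at 0.20, a call lost with quantile scaling; without WT replicate 1 or WT replicate 2 it was 2 and 1, and without WT replicate 3 it was 5 and 1. Under TPM the higher and lower counts were 3 and 6 for the cytarabine genes and 2 and 6 for nucleotide synthesis. Of 7 ABC drug exporters 0 were higher and 2 lower, ABCB1 (-0.53) and ABCC4; ABCB1 passed the filter through WT libraries alone and lost its call without WT replicate 2 or KO replicate 1.

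Stress and metabolic genes were led by a few members. TXNIP, which restrains glucose uptake and thioredoxin, read 46.4, 43.4 and 47.7 FPKM in WT and 28.6, 29.8 and 29.8 FPKM in KO libraries (-0.63 ± 0.04), but 18.3, 17.4 and 18.0 FPKM and 21.4, 19.8 and 20.3 FPKM without AraC, an interaction of -0.82 (limma adjusted p = 0.00028). Of the 16 metabolic gatekeeper genes it belongs to, 2 were higher and 3 lower (median 0.02, and -0.05 under TPM). Of 17 glucocorticoid response genes 5 were higher and 4 lower, among them SGK1 at 0.62 (median 0.05, and -0.02 under TPM). The integrated stress response had 3 higher and 5 lower of 19, with a median of -0.12 (1 and 9 under TPM; 1 higher without WT replicate 1 or WT replicate 2). SLC7A11 and SLC3A2, which form the cystine transporter, were lower, at -0.84 and -0.53, and ATF5 was higher by 0.49. Of 19 ER chaperone genes 5 were higher and 3 lower (XBP1, EDEM1 and, on chromosome 13, DNAJC3), of 16 cytosolic heat shock genes 5 and 2, of 25 interferon-stimulated genes 4 and 2, with OAS1 at -0.88 and IFI44 at 0.59, and of 18 NRF2 antioxidant genes 7 and 1. Their medians were 0.07, 0.07, 0.06 and 0.11; TPM turned the first 3 to -0.01, -0.0045 and -0.02, and without WT replicate 2 the heat shock genes gave 3 higher. Under TPM 3 ER chaperone genes and 3 glucocorticoid response genes were higher, and with quantile scaling 6 ER chaperone and 5 heat shock genes were lower.

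Cholesterol synthesis was higher in 13 of 23 genes and lower in 1, TM7SF2, with a median of 0.17; TPM gave 9 and 3. INSIG1, which holds SREBP in the ER and is itself an SREBP target, read 42.0, 40.5 and 42.2 FPKM in WT and 69.7, 69.8 and 70.1 FPKM in KO libraries (0.74 ± 0.04, limma adjusted p = 2.8e-07), with an interaction of 0.36. MSMO1, DHCR7, LSS and HMGCS1 were higher by 0.52, 0.46, 0.37 and 0.30, and without AraC 3 of the list were higher and 5 lower. Cytosolic ribosomal proteins gave the largest count, 41 higher and 1 lower of 65 with AraC, against 3 and 4 without it. Their median with AraC was 0.18, with single genes such as RPL31 at 0.29 and RPS28 at 0.25. The count with AraC moved to 14 higher and 7 lower with quantile scaling. It was 22, 19 and 27 higher without WT replicate 1, WT replicate 2 and KO replicate 3. The median over the list was 0.16 and 0.10 in KO replicates 1 and 2 and 0.33 in KO replicate 3, relative to the WT mean, and many of these genes have near-identical pseudogene copies that can share reads. Oxidative phosphorylation likewise gave 9 higher and 1 lower of 36 but 3 and 12 under TPM, 3 and 9 with plain read totals, and 2, 2, 5 and 4 higher without WT replicate 1, WT replicate 2, KO replicate 1 and KO replicate 3 (median 0.02, and -0.06 under TPM). Of 35 genes of the MYC network and ribosome biogenesis 6 were higher and 9 lower (median -0.06; 5 and 17 under TPM), MXD3 at 0.54 and RRP12, BOP1 and UTP20 at -0.58, -0.45 and -0.44, and MYC was not called. Of 25 glycolysis genes 6 were higher and 2 lower (median 0.04, and -0.04 under TPM), with the lactate exporter SLC16A3 at -0.80.

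**Figure D4:**
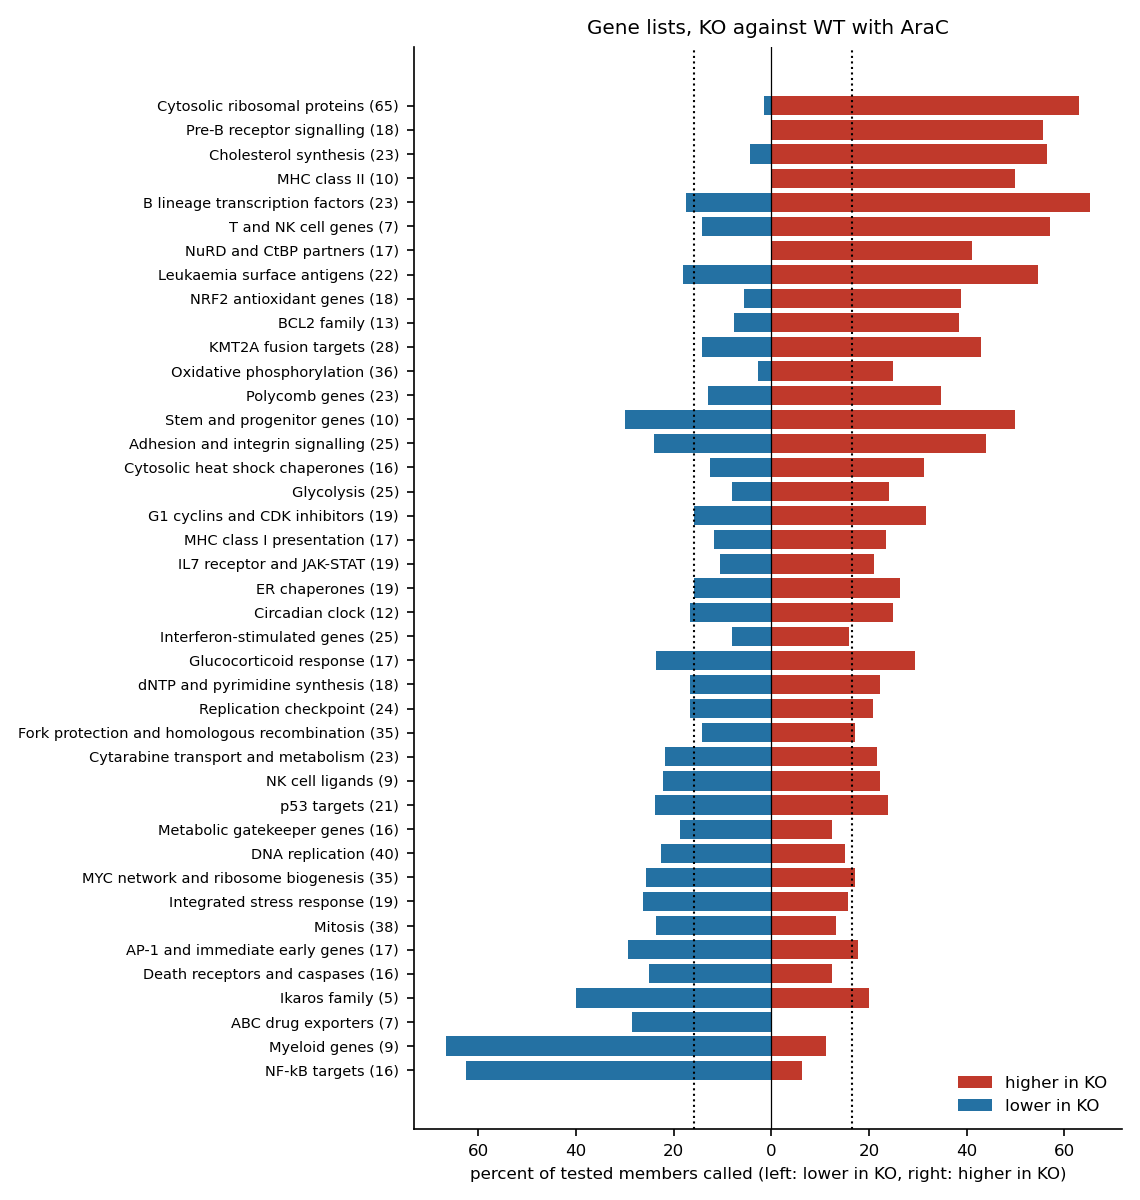
For each list with at least 5 tested genes, the percent of members called higher (bars to the right) and lower (bars to the left) in KO with AraC, with the number tested in brackets; dotted lines mark 16.5% and 15.8%, the shares over all genes. B lineage transcription factors, ribosomal proteins and pre-B receptor genes reach far to the right, and myeloid and NF-κB genes far to the left. The ribosomal protein and B lineage counts were smaller under some other scalings, as given in the text.

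Genes called lower were unevenly placed on the genome. On chromosome 13, 140 of 213 tested genes (65.7%) were lower and 7 higher, with a median log2 difference of -0.44 with AraC and -0.49 without. On chromosome 8, 224 of 437 (51.3%) were lower and 19 higher, with medians of -0.26 and -0.28. On every other nuclear chromosome with tested genes 9.64% to 16.6% were lower. These 2 chromosomes held 364 of the 1990 lower genes; without them 2057 genes were higher and 1626 lower of 11973. Genes that lie on chromosome 8 include WRN, MCM4, HSF1, BOP1, TNFRSF10B, RRM2B and ANGPT1. Those on chromosome 13 include RB1, BRCA2, FOXO1, CKAP2, RFC3, HSPH1, DNAJC3, ABCC4 and SMAD9. Not all list members there were lower. Of 2 pre-B receptor genes and 2 cholesterol synthesis genes on these chromosomes, 0 were called lower. DNA copy number was not measured, and what sets the level of these chromosomes was not tested.

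**Figure D5:**
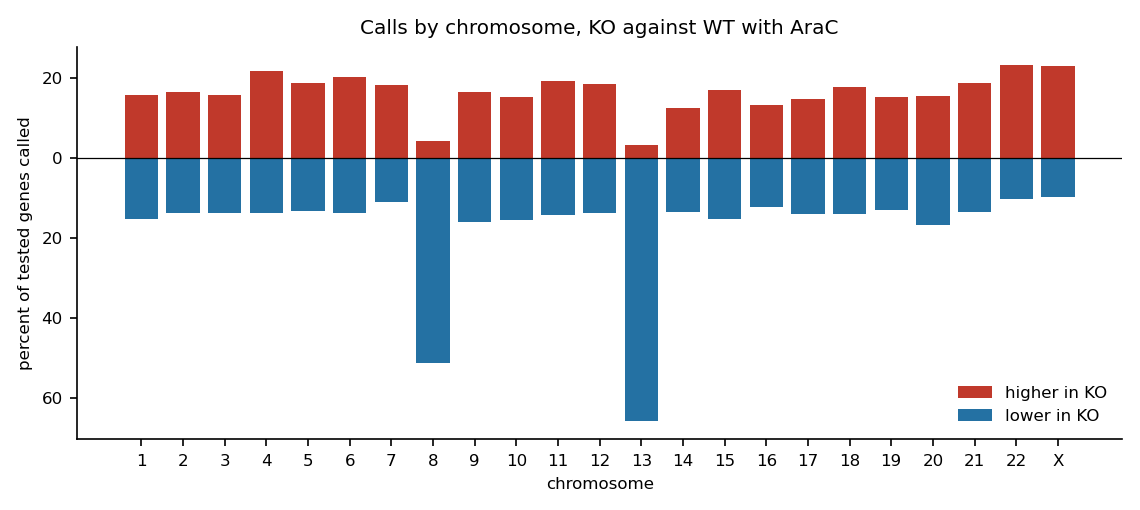
Percent of tested genes called higher (red, upward) and lower (blue, downward) in KO with AraC on each nuclear chromosome. Chromosomes 13 and 8, at 65.7% and 51.3% lower, stand apart from the rest.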

How the data were processed

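RNA was sequenced from SEM cells in 12 libraries, 3 each of WT and KO cells, untreated or with AraC. Column-purified RNA went to a service company for sequencing and analysis, per the labels' protocols. Named in the submitters' processing notes are HISAT2 2.0.5, featureCounts 1.5.0-p3, fastp and the builds GRCh38 and hg38. No source used here gives the library preparation or strand setting, so reads of overlapping genes cannot be told apart; 71 of the 217 genes named by rule overlap another tested gene, 18 of them one with a higher level. The deposited values are FPKM that carry the authors' scaling between libraries. That scaling lay within -0.32% to 0.19% of median-of-ratios factors, which rest on the median ratio of reads over genes. It thus differs from plain read totals, and the runs with TPM and plain read totals replace it with totals per library. FPKM times gene length gave whole reads within 0.001 for 100% of values.

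Computed here: log2(FPKM + 0.5) of all 12 libraries entered a single limma model (3.58.1, R 4.3.3) with a mean per group and a trended variance. The model was also run on simulated reads with the same extra spread for every gene and no library set apart. Such a run cannot check a library like KO replicate 3. All p-values are two-sided and were adjusted by Benjamini-Hochberg over the 12623 genes, with a threshold of 0.05. A fold on this scale understates the change of low genes. The rule for named genes took the 15 protein-coding genes furthest up and the 15 furthest down that were called, reached a mean of 5 FPKM and did not overlap, 3 each of other biotypes, 6 interaction genes in each direction, up to 4 members of each list, and all Ikaros family and cytarabine genes; other list members were named after their values were seen. The members and the 43 lists were chosen with earlier results of these data known, and lists are described by counts and medians, with no set test. Alternatives were tried for the pseudocount, filter, biotypes, scaling, limma-voom, the libraries in the model, the trend and the replicate block, and each library was left out in turn. The deviations of libraries that share a number correlated at -0.06 to 0.14 over all groups. Between treated WT and KO libraries these correlations were 0.05, 0.07 and 0.14. The numbers were not treated as pairs in the main model, and a run with the number as a block is given below.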

Additional observations from a re-analysis of the deposited data

Results flagged for a closer look

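In 39 of the named genes the difference between KO and WT with AraC itself differed from that without AraC (limma interaction, adjusted p under 0.05 over 12623 genes). The values below are log2 differences with AraC minus those without. More negative with AraC were TNFAIP3 (-1.44), JUN (-1.29), ATF3 (-0.944), IGLL5 (-0.866), DNAJB2 (-0.854), CCL5 (-0.852), IQCC (-0.842), TXNIP (-0.824), RELB (-0.776), PLK1 (-0.637), KLF6 (-0.532), CCNB1 (-0.494), OAT (-0.477), SGK1 (-0.476), RRP12 (-0.419), SH2B3 (-0.393), NFKB1 (-0.372), SLC3A2 (-0.369), AEN (-0.35), CAMK2D (-0.337), TCF7 (-0.323), LCK (-0.253) and KIF2C (-0.233). More positive were SNORD14E (2.44), CD52 (0.954), PKN3 (0.774), FAM69B (0.753), RAB15 (0.69), MOSPD3 (0.679), PRPS2 (0.632), CXCR4 (0.414), INSIG1 (0.356), LSS (0.351), HSPA8 (0.324), FEN1 (0.3), HSPH1 (0.295), SLC29A1 (0.294), RFC3 (0.281) and RRM2 (0.275). Each rests on 3 libraries per group. The calls of AEN, CAMK2D, FEN1, HSPA8, KIF2C, LCK, LSS, MOSPD3, RFC3, RRM2, SGK1, SLC29A1, SNORD14E and TCF7 were lost in several alternatives, and that of IQCC with a pseudocount of 0.1 and with limma-voom.

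MOSPD3 read 5.61, 6.05 and 7.17 FPKM in WT and 7.84, 8.98 and 8.83 FPKM in KO libraries with AraC, where all KO libraries were higher, and 7.69, 8.07 and 6.65 FPKM and 6.67, 5.83 and 5.97 FPKM without it, where the groups overlapped and the difference did not pass the test (limma adjusted p = 0.066). DNAJB2, a co-chaperone, read 6.89, 7.01 and 6.94 FPKM in WT and 5.10, 4.92 and 4.91 FPKM in KO libraries with AraC, and 1.95, 2.32 and 2.56 FPKM and 3.39, 3.38 and 2.79 FPKM without it. CCL5, a chemokine, read 5.75, 4.48 and 5.37 FPKM against 3.91, 3.81 and 3.86 FPKM with AraC, and 1.49, 1.34 and 1.22 FPKM against 2.22, 2.11 and 1.88 FPKM without it. For DNAJB2 and CCL5 the KO libraries were thus the higher group untreated and the lower group with AraC, without overlap in either.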

How the results depend on the processing

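Of the 196 named genes called, 0 changed direction in any alternative, 24 lost the call in at least 1, and 19 of these in alternatives other than leaving out a library. The count of differences of at least 2-fold went from 223 to 70 with a filter of 5 FPKM, which tests fewer genes. With limma-voom it was 351. Over the same 12623 genes it was 318 with a pseudocount of 0.1 and 154 with a pseudocount of 1. TPM gave 1360 higher and 3048 lower genes. Interaction calls, 375 in all and 251 negative, became 598 and 500 under TPM and 642 and 393 with limma-voom, and 420 were negative with plain read totals; the cause was not tested. Leaving out each library in turn gave 3199 to 4133 called genes, 1585 to 2095 higher, 1541 to 2038 lower, 221 to 253 of at least 2-fold, 1957 to 2226 called in the same direction untreated, and 145 to 356 interactions, 109 to 241 of them negative, with fewer samples in each. The 6 treated libraries alone gave 3420 calls, and 3355 without KO replicate 3 (chosen after seeing the data). With the replicate number as a block 3956 genes were called, 227 at least 2-fold, with 261 interactions, 173 of them negative; 6 of 6 treated libraries correlated best with their own number, a hint from the data and not from the design.

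Signs were followed across alternatives for the named genes only, and among these only genes that were not called changed sign. NME2 read 0.00023 with a pseudocount of 0.1, 0.0151 with quantile scaling, 0.0329 with limma-voom and -0.10 to 0.0654 over left-out libraries. TPM gave -0.0377 for DCTD, -0.0149 for NT5C2, -0.0507 for NT5C3A, -0.0056 for SLFN11 and -0.0601 for POLA1. Plain read totals gave -0.0143, -0.0292 and -0.0367 for DCTD, NT5C3A and POLA1, and quantile scaling -0.00126, -0.0281 and -0.077 for DCTD, POLA1 and TK1. Leaving out libraries gave -0.0548 to 0.12 for NT5C3A (-0.0155 without KO replicate 3), -0.00844 to 0.14 for NT5C, -0.10 to 0.0861 for ABCC10, -0.68 to 0.15 for HIST2H2AC, -0.27 to 0.17 for HIST1H2BK (0.0260 without KO replicate 3) and -0.0611 to 0.25 for GP9. Depth limits genes near the filter and those close to 0 in 1 group, whose ratios have wide counting intervals.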
